A study of Mus musculus with 8 samples.

Results

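The genes described here are 9 viral nucleic acid sensors and adaptors: the RIG-I-like receptors Ddx58, Ifih1 and Dhx58 with their adaptor Mavs, the nucleic acid sensor Zbp1, Toll-like receptor 3 (Tlr3) with its adaptor Ticam1, the Toll adaptor Myd88 and the DNA sensing adaptor Tmem173. Every array probe that carries one of these gene names was taken, whatever its signal, which gave 12 of the 39429 probes of the array and 9 of its 31791 gene names. All 12 probes passed the filter on low signal and were among the 25972 probes tested. Ddx58, Ifih1 and Zbp1 had 2 probes each, called probe 1 (the one with the higher mean signal over all arrays) and probe 2, and the other 6 genes had a single probe.

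RNA was measured on 8 single-color Agilent arrays of IEC10 cells, an immortalized mouse intestinal epithelial line that was derived from a transgenic animal with a luciferase gene driven by the Mx2 promoter. All cells stood for 21 days on transwell inserts. The control group (2 arrays, replicates 2 and 3) received no interferon (IFN), 1 group (3 arrays) received IFN-λ2 at 20 ng/mL and 1 group (3 arrays) received IFN-β at 500 U/mL, both for 9 h. All groups come from 1 cell line, and since nothing in the labels says that replicates were separate cultures, p-values measure the spread between these samples, which may be technical.

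The RIG-I-like receptors are cytosolic helicases that bind viral RNA. Ddx58 (RIG-I) and Ifih1 (MDA5) signal through the mitochondrial adaptor Mavs, whereas Dhx58 (LGP2) lacks the signaling domain and modulates the other two. Tlr3 recognizes double-stranded RNA in endosomes and signals through Ticam1 (TRIF), Myd88 serves most other Toll-like receptors, Tmem173 (STING) relays the signal of cytosolic DNA sensors, and Zbp1 recognizes Z-form nucleic acids and can start necroptosis. Several of these genes belong to the interferon-stimulated genes, so that interferon raises the machinery that detects viruses; the arrays show which steps of these pathways changed in IEC10 cells and whether IFN-λ2 and IFN-β differed in this.

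Promoter sequences are shown for the genes in which the core of the interferon-stimulated response element, a promoter element common to interferon-stimulated genes, was found. They were read from RefSeq (GRCm38.p6), each from 250 bases before to 50 bases after the start site, and 6 of the 9 genes matched by symbol (Ddx58, Ifih1, Tlr3, Mavs, Ticam1 and Myd88), whereas Dhx58, Zbp1 and Tmem173 had no entry. The motif GAAANNGAAA was searched on both strands, and its match is in capitals. It occurred once in each of 3 promoters, those of Ddx58 (chr4:40239776-40240075, minus strand, first base of the match at +3, on the reverse strand), Ifih1 (chr2:62646206-62646505, minus strand, at +33) and Myd88 (chr9:119339969-119340268, minus strand, at -40), and in none of the windows of Tlr3, Mavs and Ticam1. Of all 32851 promoters of this length, 3.44% held it.
Ddx58: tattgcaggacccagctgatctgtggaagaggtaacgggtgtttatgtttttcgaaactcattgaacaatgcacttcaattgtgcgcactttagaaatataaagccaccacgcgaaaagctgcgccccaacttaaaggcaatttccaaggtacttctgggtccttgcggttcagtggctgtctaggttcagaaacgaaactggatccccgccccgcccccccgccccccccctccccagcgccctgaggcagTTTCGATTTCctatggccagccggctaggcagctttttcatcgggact
Ifih1: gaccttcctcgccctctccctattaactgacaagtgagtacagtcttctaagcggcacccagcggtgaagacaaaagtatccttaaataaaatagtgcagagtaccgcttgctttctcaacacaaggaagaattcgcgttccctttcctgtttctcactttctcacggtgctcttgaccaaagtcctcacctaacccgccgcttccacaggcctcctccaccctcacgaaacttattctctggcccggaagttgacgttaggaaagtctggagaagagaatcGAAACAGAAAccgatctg
Myd88: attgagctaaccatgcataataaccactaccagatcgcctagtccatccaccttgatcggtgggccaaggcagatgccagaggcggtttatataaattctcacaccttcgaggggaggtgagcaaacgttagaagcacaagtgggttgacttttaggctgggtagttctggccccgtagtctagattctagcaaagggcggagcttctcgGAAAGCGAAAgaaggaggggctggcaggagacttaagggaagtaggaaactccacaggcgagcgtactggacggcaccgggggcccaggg
A match of letters is a description of the sequence and not a measured binding site.

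For Zbp1 the pair of probes is shown as well, since the values differ between them. According to the array's annotation, probe 1 reads transcript variant 2 (chr2:173039307-173039366 on mm9, minus strand) and probe 2 transcript variant 1 (chr2:173032258-173032317), 7049 bases apart. The first 30 of their 60 bases are given.
Zbp1 probe 1: caagctggtcttgaacccacagagatcttc
Zbp1 probe 2: acagatgtgacatgaaagtacatgtaacac
None of the 12 probes shared a run of 20 bases on either strand with another probe of the array.

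The scanner software marked between 20992 and 24252 probes per array as well above background, the fewest with IFN-λ2 (replicate 2), and no feature was saturated. All 9 epithelial markers searched for were well above background on all 8 arrays. With IFN-λ2, Ocln, Cdh1 and Krt19 were higher (log2 differences of 0.58, 0.44 and 0.41) and Cldn3 was lower (-0.63), and none of the 9 passed the test with IFN-β (adjusted p from 0.261 to 0.990). Of 9 fibroblast markers none, and of 5 endothelial markers only Kdr, were well above background on all arrays. Of 12 immune cell markers 5 were (Cd3e, Cd68, Cd74, Csf1r and Itgam), whereas the leukocyte marker Ptprc was so on 2 arrays. The summed signal of the immune markers was 10890 to 14523 units in the control, 9264 to 11612 with IFN-λ2 and 9260 to 16564 with IFN-β. Only Cd74 among them passed the test with IFN-λ2, higher by 2.24 on the log2 scale (adjusted p = 1.58e-05 from limma). Itgam and Cd3e differed by -1.33 and -0.21 (adjusted p = 0.143 and 0.217), and Cd68 and Csf1r by 0.43 and 0.31 (0.0750 and 0.122). The part of other cells in the results was not tested. In a bulk culture, fewer cells of a type and less RNA per cell cannot be told apart. All arrays of a group had the same position on their slide, which therefore cannot be told apart from the treatment.

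Both interferons raised the RNA sensors and Zbp1, while the log2 differences of the adaptors stayed between -0.40 and 0.40. Against the control, 9 of the 12 probes were higher with IFN-λ2 and 1 was lower (Benjamini-Hochberg adjusted p under 0.05 from limma), beside 10.0% higher and 8.55% lower among all probes tested. The probes that rose belong to Zbp1, Dhx58, Ddx58, Ifih1, Tlr3 and Myd88, and the one that fell reads Ticam1. With IFN-β 8 of the 12 probes were higher and none was lower, beside 1.44% and 0.208% of all probes, and they belong to Zbp1, Dhx58, Ddx58, Ifih1 and Tlr3. At an unadjusted p under 0.05 from limma, 9 of the 12 probes were higher with IFN-β and 1 (Ticam1) was lower, without a share of all probes to set beside these counts. In the methods' own test none was lower after Benjamini-Hochberg adjustment. A 2-fold minimum in addition left 8 higher probes in each comparison, with 2.67% of all probes for IFN-λ2 and 0.882% for IFN-β, and no lower one (1.19% and 0.0308% of all probes). The median log2 difference of the 12 probes was 2.29 with IFN-λ2 and 2.30 with IFN-β, whereas that of all probes was 0.00083 and 0.016. The arrays of the groups did not overlap for 11 of the 12 probes with IFN-λ2 (49.6% of all probes) and for 10 with IFN-β (26.5% of all probes). Both comparisons use the same 2 control arrays and are thus not independent of each other.

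**Figure D1:**
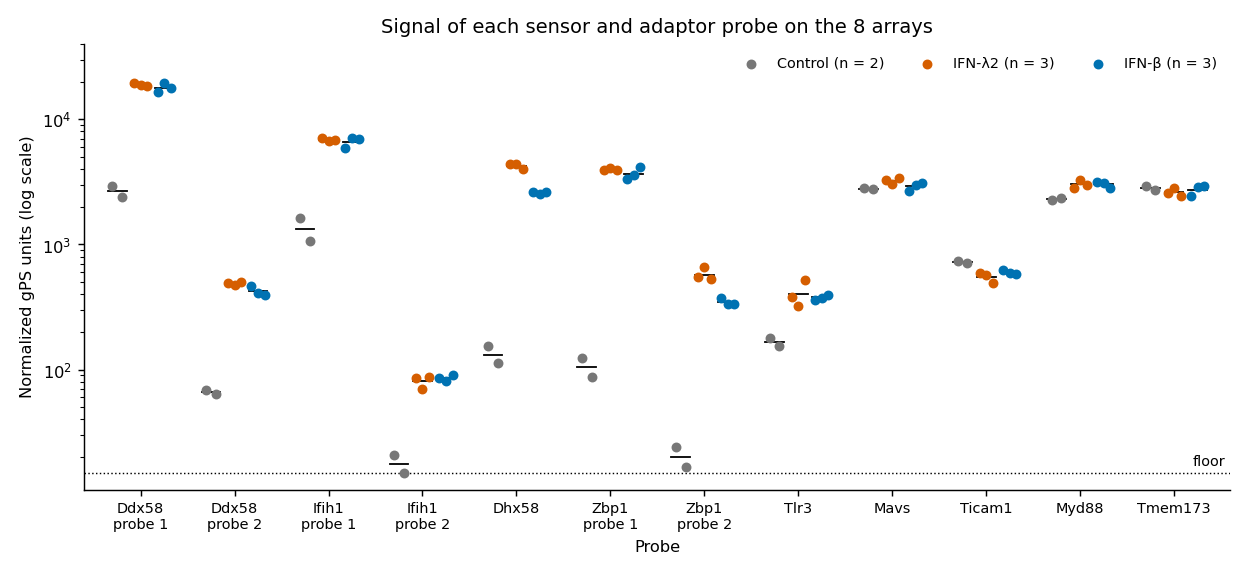
Signal of each of the 12 probes on each array in normalized gPS (gProcessedSignal) units on a log axis; points are single arrays of control (gray, n = 2), IFN-λ2 (orange, n = 3) and IFN-β (blue, n = 3), short lines are geometric means and the dotted line is the floor of 15 units. The arrays of both interferon groups lie above those of the control for Ddx58, Ifih1, Dhx58, Zbp1, Tlr3 and Myd88; levels of different probes cannot be compared.

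Signals are given in normalized gPS units, that is, the processed signal of the scanner scaled so that the 75th percentile of each array was 1500 units. Ddx58, the receptor for short RNA with a triphosphate end, was measured by probe 1 (chr4:40151893-40151952 on mm9, minus strand) at 2954 and 2391 units in the control, at 19629, 18734 and 18561 units with IFN-λ2 and at 16466, 19539 and 17799 units with IFN-β. Each array with interferon lay far above both control arrays, and the arrays of the interferon groups overlapped each other. The fold change was 7.14 with IFN-λ2 (95% confidence interval 5.91 to 8.61, adjusted p = 1.49e-05) and 6.73 with IFN-β (5.58 to 8.13, adjusted p = 2.46e-05), where the methods' own test gave an adjusted p of 0.0592. Probe 2 of Ddx58, 760 bases away in the same transcript, gave 68.4 and 63.4 units in the control, 488, 479 and 502 units with IFN-λ2 and 469, 412 and 395 units with IFN-β. Both probes thus rose with each cytokine; for probe 2 the fold changes were 7.43 (6.39 to 8.65) and 6.44 (5.54 to 7.50), and the log2 differences of 2.89 and 2.69 were 2.20 and 1.96 after normexp background correction.

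Ifih1, the receptor for long double-stranded RNA, was measured by probe 1 (chr2:62435507-62435566, minus strand) at 1633 and 1065 units in the control, at 7118, 6736 and 6789 units with IFN-λ2 and at 5915, 7083 and 6913 units with IFN-β. Both control arrays lay below all arrays of either interferon group, and the interferon groups overlapped. The fold change was 5.22 with IFN-λ2 (95% confidence interval 3.90 to 6.98, adjusted p = 0.000274) and 5.02 with IFN-β (3.75 to 6.71, adjusted p = 0.000565), where the methods' own test gave an adjusted p of 0.178. Probe 2 of Ifih1 did not stand well above background in either control array, with 20.7 units on 1 array and the floor of 15 units on the other, and gave 85.4, 70.5 and 87.9 units with IFN-λ2 and 86.4, 80.5 and 89.9 units with IFN-β. The size of its increase is therefore uncertain. It was estimated as the interferon group's mean against a substitute for the control. On each control array the substitute was the lowest signal that counts as well above background, or the probe's own signal if higher. So estimated, the signal of probe 2 was 4.50-fold higher with IFN-λ2 and 4.76-fold higher with IFN-β. The fitted fold changes were 4.59 (95% confidence interval 3.54 to 5.95, adjusted p = 0.000236 from limma) and 4.86 (3.75 to 6.30, adjusted p = 0.000343). After normexp background correction the log2 difference of probe 2 with IFN-β was 0.81 instead of 2.28 and no longer passed the test (adjusted p = 0.0900, and 0.115 in the methods' own test without that correction), and with IFN-λ2 it was 1.03 instead of 2.20. With a floor of 50 units the log2 differences were 0.69 and 0.77.

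Dhx58, the member of the family without a signaling domain, had one of the largest increases on the array. Its probe (chr11:100556271-100556330, minus strand) gave 153 and 114 units in the control, 4404, 4393 and 4006 units with IFN-λ2 and 2641, 2543 and 2614 units with IFN-β. None of the 3 groups overlapped, and every IFN-λ2 array was above every IFN-β array. The fold change was 32.3 with IFN-λ2 (95% confidence interval 26.2 to 39.8, adjusted p = 2.31e-06) and 19.7 with IFN-β (16.0 to 24.3, adjusted p = 5.65e-06). Among all probes tested, this log2 difference ranked 7 from the highest with IFN-λ2 and 6 with IFN-β.

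Zbp1, the sensor of Z-form nucleic acids, was measured by probe 1 at 124 and 87.6 units in the control, at 3915, 4080 and 3916 units with IFN-λ2 and at 3347, 3587 and 4149 units with IFN-β. All interferon arrays were far above the control arrays, and the highest single value was from an IFN-β array. The fold change was 38.1 with IFN-λ2 (95% confidence interval 29.5 to 49.3, adjusted p = 3.67e-06) and 35.4 with IFN-β (27.4 to 45.7, adjusted p = 5.95e-06), rank 5 and rank 2 from the highest among all probes. Probe 2, which is annotated to the other transcript variant, gave 23.9 and 16.7 units in the control (not marked as well above background on either array). It gave 552, 656 and 526 units with IFN-λ2 and 375, 332 and 336 units with IFN-β. For this probe all 3 groups were apart, with IFN-λ2 above IFN-β. The increase was at least 28.8-fold for IFN-λ2 (adjusted p = 6.59e-06) and at least 17.4-fold for IFN-β (adjusted p = 2.35e-05). Normexp background correction lowered the log2 differences of probe 2 from 4.85 to 3.03 and from 4.12 to 2.32, and those of probe 1 from 5.25 to 4.60 and from 5.14 to 4.53; all 4 passed the test under this correction.

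Tlr3, the endosomal receptor, rose less than the cytosolic sensors. The probe (chr8:46481729-46481788, minus strand) gave 180 and 154 units in the control, 383, 321 and 522 units with IFN-λ2 and 363, 375 and 396 units with IFN-β. Both interferon groups were above the control without overlap, and the IFN-λ2 arrays spread on both sides of the IFN-β arrays. The fold change was 2.41 with IFN-λ2 (95% confidence interval 1.75 to 3.31, adjusted p = 0.00586) and 2.27 with IFN-β (1.65 to 3.13, adjusted p = 0.0356). The methods' own test after Benjamini-Hochberg adjustment called neither (adjusted p = 0.108 and 0.116). The call with IFN-β was lost with the slide as a block (log2 difference 1.22, adjusted p = 0.152). It was also lost without control replicate 2 or 3 (adjusted p = 0.110 and 0.206), without IFN-λ2 replicate 1 (0.0865) and without IFN-β replicate 1, 2 or 3 (0.0990, 0.108 and 0.125), with log2 differences between 1.07 and 1.30 over all arrays left out.

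Ticam1, the adaptor of Tlr3, was the one member that fell. Its probe (chr17:56409265-56409324, minus strand) gave 736 and 715 units in the control, 590, 569 and 491 units with IFN-λ2 and 625, 594 and 581 units with IFN-β. Every interferon array was below both control arrays. With IFN-λ2 the signal fell by 24.4% (log2 difference -0.40, 95% confidence interval -0.63 to -0.18, adjusted p = 0.0273), and with IFN-β the log2 difference was -0.27 (-0.50 to -0.05, adjusted p = 0.314). The call with IFN-λ2 was lost after normexp background correction (adjusted p = 0.205), in the methods' own test (0.134), with only the 2 groups in the fit (0.0650), and without control replicate 2 (0.103), control replicate 3 (0.0916) or IFN-λ2 replicate 2 (0.0519).

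Myd88, the adaptor of most Toll-like receptors, is the member with the most features on the array, as its probe (chr9:119245322-119245381, minus strand) is printed in 10 copies. Their standard deviation within an array was 0.029 to 0.060 on the log2 scale, with 8 copies left on the array of IFN-β replicate 1 and 10 on every other array. The signal was 2247 and 2337 units in the control, 2837, 3258 and 2999 units with IFN-λ2 and 3177, 3072 and 2848 units with IFN-β. All interferon arrays were above the control arrays, by a similar amount for both cytokines. The increase was 32.1% with IFN-λ2 (log2 difference 0.40, 95% confidence interval 0.19 to 0.61, adjusted p = 0.0215), and with IFN-β the log2 difference was also 0.40 (0.20 to 0.61) but did not pass the test (adjusted p = 0.102). The call with IFN-λ2 was lost with the slide as a block (adjusted p = 0.0627) and after normexp background correction (0.0896), in the methods' own test (0.0915), as well as without control replicate 2 (0.0900), control replicate 3 (0.0710), IFN-λ2 replicate 2 (0.0531) or IFN-λ2 replicate 3 (0.0560).

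Mavs and Tmem173, on which the RNA and DNA sensors of the cytosol converge, showed no change that passed the test. The Mavs probe (chr2:131073675-131073734, plus strand) gave 2826 and 2758 units in the control, 3264, 3049 and 3425 units with IFN-λ2 and 2687, 2964 and 3090 units with IFN-β. The IFN-λ2 arrays lay slightly above the control arrays (log2 difference 0.22, 95% confidence interval 0.01 to 0.43, adjusted p = 0.140), while the IFN-β arrays lay on both sides (0.06, -0.15 to 0.27, adjusted p = 0.844). The Tmem173 probe gave 2914 and 2715 units in the control, 2581, 2851 and 2429 units with IFN-λ2 and 2452, 2873 and 2939 units with IFN-β, so that all groups overlapped. Its log2 difference was -0.11 with IFN-λ2 (-0.37 to 0.16, adjusted p = 0.547) and -0.03 with IFN-β (-0.30 to 0.23, adjusted p = 0.940). The intervals of these probes allow changes from 0.775-fold to 1.34-fold, and do not show that the levels were equal.

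**Figure D2:**
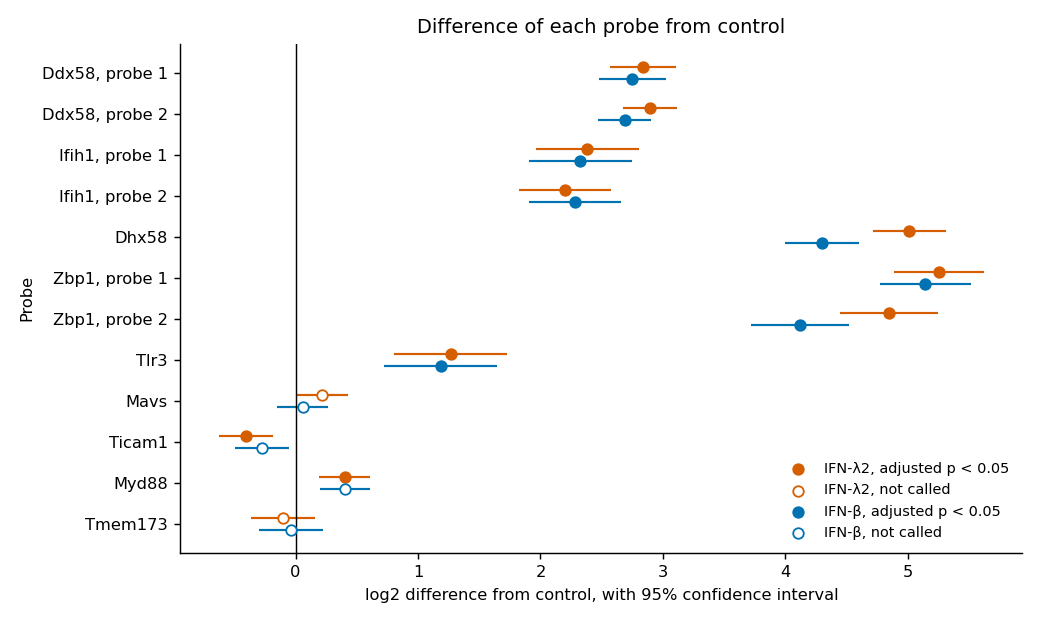
Log2 difference of each probe from the control (horizontal axis) with its 95% confidence interval from limma, for IFN-λ2 (orange) and IFN-β (blue); filled points passed an adjusted p of 0.05. Zbp1 and Dhx58 lie between 4.12 and 5.25, Ddx58 and Ifih1 between 2.20 and 2.89, Tlr3 at 1.27 and 1.19, and the adaptors between -0.40 and 0.40; probe 2 of Zbp1 and of Ifih1 are drawn at their fitted values, although the control was not well above background.

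The sensors differed in how far they rose. With IFN-λ2, the intervals of neighboring probes overlapped between probe 1 of Zbp1 (5.25) and Dhx58 (5.01), and were apart between Dhx58 and Ddx58 (2.89). They overlapped among the probes of Ddx58 and probe 1 of Ifih1, and were apart between probe 1 of Ifih1 (2.38) and Tlr3 (1.27) and between Tlr3 and Myd88 (0.40). With IFN-β, probe 1 of Zbp1 (5.14) was apart from Dhx58 (4.30), Dhx58 from Ddx58 (2.75), probe 1 of Ifih1 (2.33) from Tlr3 (1.19), and Tlr3 from Myd88 (0.40). Probe 2 of Zbp1 and of Ifih1 were left out of this order, since the size of their increases is uncertain. Within slides 2 and 3, which hold a control array, the sign of the difference was the same on both slides for all 12 probes with IFN-λ2 and for 11 with IFN-β, the exception being Tmem173. The share of all probes with the same sign on both slides is not given here, so these counts only describe the members.

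The direct comparison asked whether IFN-λ2 and IFN-β, given at these single doses, reached different levels. Of the 12 probes, 2 were higher with IFN-λ2 and none with IFN-β (adjusted p under 0.05 from limma), beside 5.53% and 5.68% of all probes. At an unadjusted p under 0.05 from limma, 3 were higher with IFN-λ2 and none was lower, without a share of all probes to set beside them. Neither of the 2 differences that passed after adjustment reached 2-fold, which 1.44% (higher) and 0.774% (lower) of all probes did. Dhx58 was 1.64-fold higher with IFN-λ2 (log2 difference 0.71, 95% confidence interval 0.45 to 0.98, adjusted p = 0.00982). The difference was found on each of the 3 slides, at 0.74, 0.79 and 0.62 on slides 1, 2 and 3, and passed the test in all 20 refits with another setting or an array left out (adjusted p from 0.00373 to 0.0466). Probe 2 of Zbp1 was 1.66-fold higher (0.73, 0.37 to 1.09, adjusted p = 0.0253), with 0.56, 0.98 and 0.65 on the slides. Its call was lost without IFN-λ2 replicate 1, 2 or 3 (adjusted p = 0.0769, 0.0749 and 0.0510) and without IFN-β replicate 2 or 3 (0.0681 and 0.0872), which left 1 member probe called. The arrays did not overlap for 3 of the 12 probes, those of Dhx58, Zbp1 (probe 2) and Ddx58 (probe 2), beside 32.4% of all probes.

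For the other 10 probes no difference between the cytokines passed the test. Probe 2 of Ddx58 had a log2 difference of 0.21 (95% confidence interval 0.01 to 0.40, adjusted p = 0.177), and probe 1 of Ddx58 one of 0.08 (-0.16 to 0.33). Probe 1 of Ifih1 differed by 0.06 (-0.32 to 0.43) and Tlr3 by 0.08 (-0.33 to 0.49), with values of both signs on the slides. The sign was the same on all 3 slides for 6 of the 12 probes, namely Dhx58, probe 2 of Zbp1, probe 2 of Ddx58 (0.056, 0.21 and 0.35) and Mavs (0.28, 0.041 and 0.15), which were higher with IFN-λ2, and Ticam1 (-0.084, -0.063 and -0.24) and probe 2 of Ifih1 (-0.016, -0.19 and -0.033), which were lower. The share of all probes with the same sign on all 3 slides is not given here, so this count only describes the members. Myd88 was closest to equal, at -0.0011 (-0.19 to 0.18). Over these 10 probes the intervals reached from -0.42 to 0.49, and the upper limit for Tlr3, the probe with the widest interval, was a 1.41-fold higher level with IFN-λ2.

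The probes of Zbp1 did not give the same answer in this comparison. Probe 1 differed by 0.11 (95% confidence interval -0.22 to 0.44, adjusted p = 0.684) and was higher with IFN-λ2 on slides 1 and 2 and lower on slide 3, whereas probe 2 was higher on all 3 slides. On each array, the log2 ratio of probe 2 over probe 1 was between -2.90 and -2.64 with IFN-λ2 and between -3.63 and -3.16 with IFN-β, without overlap. The mean ratio differed by 0.62, with a two-sided exact permutation p of 0.1 over 3 against 3 arrays, which is the smallest that this design can give. The same was computed for the other pairs of probes, 3 pairs in all, and gave 0.12 for Ddx58 and -0.14 for Ifih1 (exact permutation p = 0.4 for each). The permutation did not use the slides that same-numbered arrays share. Within all 3 slides the difference was larger for probe 2 than for probe 1 of Zbp1, and lower for probe 2 of Ifih1. For Ddx58 the direction varied. The probes of Ddx58 and of Ifih1 are 760 and 547 bases apart, and those of Zbp1 7049. Whether each Zbp1 probe reads only its annotated transcript variant was not tested.

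**Figure D3:**
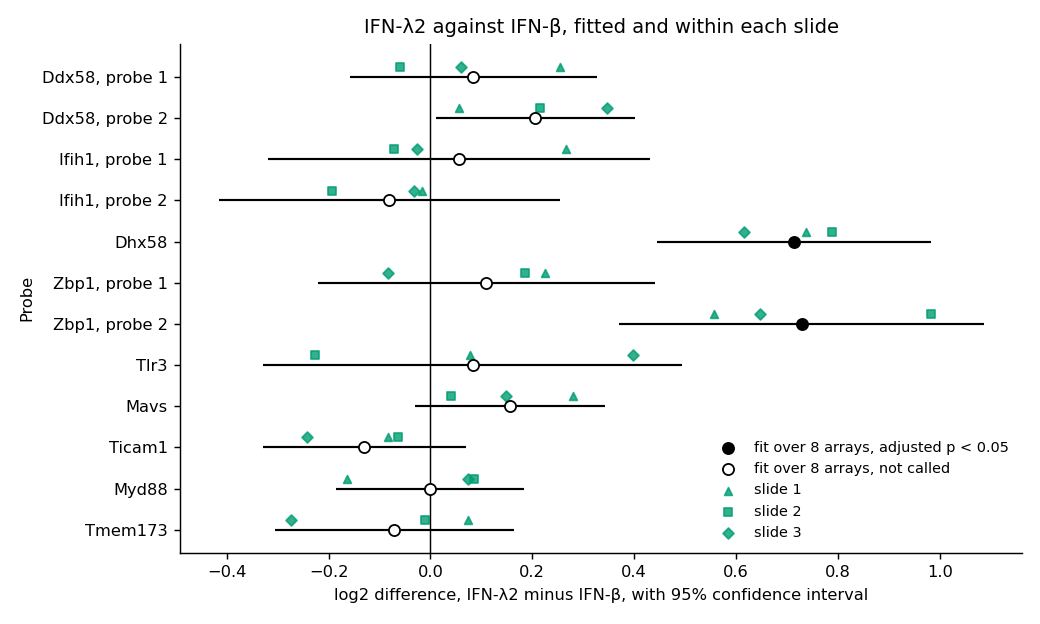
Log2 difference of IFN-λ2 from IFN-β for each probe (horizontal axis), as fitted by limma with its 95% confidence interval (black; filled, adjusted p under 0.05) and within each of the 3 slides (green symbols, above the fitted value). Dhx58 and probe 2 of Zbp1 are at 0.71 and 0.73 with all slides above 0, and the other probes have intervals between -0.42 and 0.49.

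To place the members among the other genes of the array, the genes with the most similar pattern were sought over all 8 arrays, as the smallest root mean square difference of log2 values centered on the control, among 20766 genes with 1 probe each. Ddx58 was nearest to Igtp (0.061), whose log2 difference with IFN-λ2 was 2.83. Ifih1 was nearest to Trim34 (0.13), Uba7 (0.17) and Gm1966 (0.18). Dhx58 was nearest to Oasl2 (0.24), Gbp3 (0.25) and Mx1 (0.26), of which Mx1 had a log2 difference of 0.97 between the cytokines (IFN-λ2 higher). Zbp1 was nearest to Gbp3 (0.39), Oasl2 (0.43) and Oas3 (0.52), and Tlr3 to Dll1 and Mitd1 (0.16 and 0.17). Around Ticam1 and Myd88, whose changes are small, the nearest genes (Sgms1 for Ticam1 and March5 for Myd88) were 0.054 and 0.058 away.

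The other genes of the same pathways were described by 4 lists of 67 genes, of which 63 had a probe above the filter (Ticam2, Sarm1, Aim2 and Enpp1 had none); the probe with the highest mean signal stands for each gene. With IFN-β, 14 of the 63 were higher and 4 lower at an unadjusted p under 0.05 from limma, without a share of all probes to set beside these counts. After adjustment, 19 of the 63 were higher and 3 lower with IFN-λ2, and 8 were higher and none was lower with IFN-β (adjusted p under 0.05 from limma). The shares of all probes were 10.0% and 8.55% with IFN-λ2, and 1.44% and 0.208% with IFN-β. Without control replicate 3 the number with IFN-λ2 was 14 in both directions together instead of 22, while the share of all probes was 10.5% instead of 18.6%, and it was 14 after normexp background correction (8.22% of all probes). With the slide as a block it was 19 (13.0% of all probes), as the calls of Atg5, Traf2 and Tlr2 were lost (adjusted p = 0.0759, 0.0541 and 0.0887), and with IFN-β the block gave the same 8 genes (1.01% of all probes instead of 1.65%).

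Among the regulators and relays of the RIG-I pathway, 10 of 25 were higher with IFN-λ2 and 1 was lower (10.0% and 8.55% of all probes), with a median log2 difference of 0.20 over the list. The largest increases were those of Irf7, the transcription factor that drives interferon genes (3.67), Nlrc5, the activator of the MHC class I genes (2.13), and Trim25, a ubiquitin ligase that activates Ddx58 (1.53). Rnf135, another ubiquitin ligase that activates Ddx58, rose by 0.86. The signal of the helicase Ddx60 lay at the floor of 15 units in the control and was well above background on 2 of 3 arrays with IFN-λ2, at least 1.64-fold higher (adjusted p = 0.00868). Prkra, a binding protein for double-stranded RNA, fell by 0.50. Smaller increases were measured for G3bp1, Tbk1, Atg12, Traf2 and Atg5 (0.50 to 0.27). With IFN-β 4 of 25 were higher (1.44% of all probes), namely Irf7 (3.85), Nlrc5 (1.70), Trim25 (1.35) and Rnf135 (0.92), and the median was 0.088.

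Among 14 genes of cytosolic DNA sensing, 4 were higher with IFN-λ2 (10.0% of all probes) and 3 with IFN-β (1.44%). Ifi204, a DNA-binding protein of the interferon-inducible p200 family, rose by 3.92 and 3.69, and Trex1, an exonuclease that degrades cytosolic DNA, by 1.48 and 1.53. Samhd1, a hydrolase of nucleotides for DNA synthesis, rose by 0.41 and 0.78. Mb21d1 (cGAS), the enzyme whose product activates Tmem173, rose by 0.82 with IFN-λ2 (adjusted p = 0.00193), and its difference with IFN-β was 0.53 (adjusted p = 0.0532). The medians of this list were 0.078 and 0.035.

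Among 17 Toll-like receptors of endosomes and the cell surface with their co-receptors, chaperones, adaptors and kinases, 2 were higher and 2 lower with IFN-λ2, which is close to the 10.0% and 8.55% of all probes. None passed the test with IFN-β, where Tlr2 came closest (0.63, adjusted p = 0.0506). At an unadjusted p under 0.05 from limma, 2 were higher and 4 lower with IFN-β, without a share of all probes to set beside these counts. Unc93b1, which escorts the endosomal receptors including Tlr3, rose by 1.04 with IFN-λ2, and Tlr2, a receptor for bacterial lipoproteins, by 0.41. Hsp90b1, the chaperone that folds Toll-like receptors, fell by 0.87, and the flagellin receptor Tlr5 fell by 0.53. The medians were -0.041 and 0.0019.

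Of the 7 partners of Zbp1 in cell death, 3 were higher with IFN-λ2 (10.0% of all probes) and 1 with IFN-β (1.44%). Adar, which edits double-stranded RNA and also binds the Z-form, rose by 1.53 with IFN-λ2 and by 2.09 with IFN-β. Mlkl, which carries out necroptosis, rose by 1.43 with IFN-λ2 (adjusted p = 0.00500), and its difference with IFN-β was 1.16 (adjusted p = 0.0520). Ripk3, the kinase upstream of Mlkl, rose by 0.45 with IFN-λ2 and differed by -0.14 with IFN-β (adjusted p = 0.587). The medians were 0.22 and 0.061.

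Between the cytokines, 6 of the 63 genes differed, 3 in each direction (5.53% and 5.68% of all probes). Higher with IFN-λ2 were Unc93b1 (0.62), Ripk3 (0.59, adjusted p = 0.00413) and Ddx60, which was well above background on 2 of 3 arrays with IFN-λ2 and on 1 of 3 with IFN-β, where its mean of 16.4 units lay near the floor. Higher with IFN-β were Adar (-0.56, adjusted p = 0.00445), Prkra (-0.44) and Samhd1 (-0.37). With the slide as a block the calls of Unc93b1 and Samhd1 were lost (adjusted p = 0.0684 and 0.0522) and Irak3 was gained (0.30, adjusted p = 0.0486). Without IFN-λ2 replicate 1, 3 of the 63 genes differed, with the share of all probes at 5.59% instead of 11.2%.

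**Figure D4:**
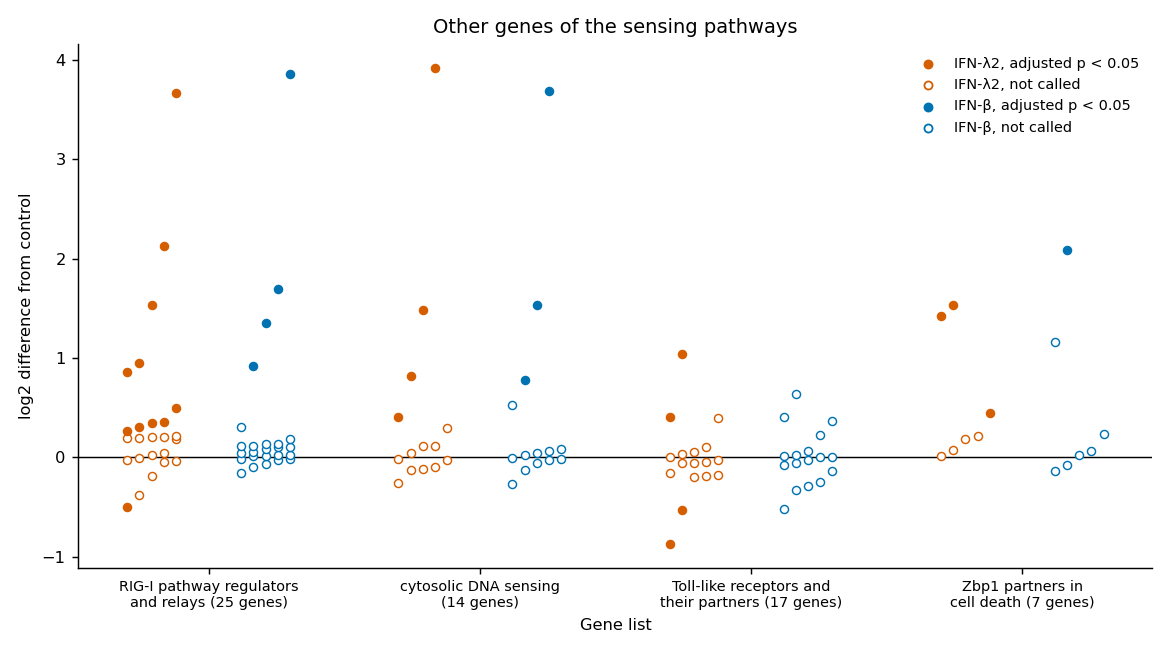
Log2 difference from the control (vertical axis) of 63 other genes of the sensing pathways, 1 point per gene, in 4 lists, for IFN-λ2 (orange) and IFN-β (blue); filled points passed an adjusted p of 0.05 and the sideways spread has no meaning. Irf7 (3.67 and 3.85) and Ifi204 (3.92 and 3.69) stand highest, and most open points lie near 0.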

How the data were processed

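Per the labels and the study's methods, Cy3-labeled RNA was hybridized to 1-color Agilent arrays and read with Feature Extraction 10.7.3.1. The authors deposited the intensity of every feature before scaling between arrays, and a table of processed intensity values. The table has a floor of 15, and for the member probes it differed from the values used here by at most 0.138 on the log2 scale, by a constant per array except at the floor.

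From the deposited scanner intensities (gProcessedSignal, background already subtracted), features did not enter where pixels were uneven (coefficient of variation above 0.5), where copies of a probe disagreed (a limit of 1.42 interquartile ranges) or where the scanner software or its user had flagged them. Copies were averaged geometrically, each array's 75th percentile was brought to 1500, values below 15 were raised to 15 before log2, and a probe was tested if 2 arrays or more exceeded 15. The scaling factors were 0.691 to 0.769. The number of arrays limits the precision. One limma model (version 3.58.1, R 4.3.3) held the 3 group means of all 8 arrays, with Benjamini-Hochberg adjustment over all probes at 0.05; pandas 2.3.3, numpy 2.4.6 and scipy 1.17.1 under Python 3.11.15 served for the other steps. No comparison with control could be made for 1 probe, which leaves 25971 there. Tested on simulated data of 25972 probes, the fit recovered 82, 76 and 83 of 100 probes shifted by 1 in the comparisons of IFN-λ2 and of IFN-β with control and of both cytokines, beside 4, 9 and 7 false calls. The shifted probes were drawn from those with a mean signal well above the floor. The simulation had independent noise on each array, no floor and no shared slide, and is thus simpler than the data.

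Slide and scan coincide with the replicate number, so that same-numbered arrays share a slide. Deviations of the IFN-λ2 and IFN-β arrays from their group means correlated across 22182 probes by 0.269, 0.199 and 0.379 for the same number (at most 0.051 otherwise), and the fit with the number as a block was an alternative. Further alternatives were normexp (offset 50), quantile normalization, other floors and filters, the deposited table, no feature left out, leaving out each array, a fit of 2 groups, a variance trend, a 2-fold minimum and the methods' own tests. Members and lists were chosen with earlier results of these data known; each member probe is named, and of the lists the genes called with the largest differences, up to 4 per list and comparison, with others added to show a range. For each member called against control, the 3 nearest genes were sought. One item is not reported here. Probe coordinates (mm9) were taken from the array files. A control replicate 1 was not analysed here.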

Additional observations from a re-analysis of the deposited data

How the results depend on the processing

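The calls of Zbp1, Dhx58, Ddx58 (probe 2) against control and of Dhx58 between the cytokines held in all 20 refits except that probe 2 of Zbp1 with IFN-β was lost in the methods' own test after Benjamini-Hochberg adjustment (adjusted p = 0.0542). With the slide as a replicate block, 9, 7 and 2 member probes were called (IFN-λ2 and IFN-β against control, and the direct comparison) instead of 10, 8 and 2, while the share of all probes was 13.0%, 1.01% and 8.37% instead of 18.6%, 1.65% and 11.2%: Myd88 with IFN-λ2 (0.41, adjusted p = 0.0627) and Tlr3 with IFN-β (1.22, adjusted p = 0.152) were lost, and the block changed no other call of a member probe. Leaving out 1 array gave 8 to 10, 7 to 8 and 1 to 2 member probes, and 14 to 22, 8 to 10 and 3 to 7 of the other sensing genes, against 22, 8 and 6 with all arrays; of all probes 10.4% to 19.7%, 1.17% to 1.54% and 5.59% to 10.6% were then called. The methods' own test called 5 and 3 member probes against control at their threshold and none between the cytokines (1.41%, 0.306% and 1.09% of all probes), and 3 with IFN-β after Benjamini-Hochberg adjustment (0.388%); a 2-fold minimum left none between the cytokines. For the other sensing genes with IFN-λ2, normexp gave 14 (8.22% of all probes), a 2-fold minimum 8, and the methods' test 12 adjusted (6.26%) and 6 at their threshold; with IFN-β that test gave 4 and 3; between the cytokines a floor of 50 and a variance trend gave 10 each (15.9% and 13.0%), and a 2-fold minimum and the methods' threshold none (0). Myd88 with IFN-β passed with a variance trend (adjusted p = 0.0486). The causes were not tested.

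Signs turned only where nothing was called. Tmem173 with IFN-β was 0.016 after normexp and 0.011 with the block (-0.086 to 0.047 without single arrays). Between the cytokines, probe 2 of Ifih1 was 0.22 after normexp (-0.14 to 0.019 without single arrays), probe 1 of Ifih1 ranged from -0.025 to 0.11 and Tlr3 from -0.11 to 0.24 without single arrays, and Myd88 was 0.0013 after quantile normalization, 0.016 in the deposited table and 0.0069 with no feature left out (-0.054 to 0.045 without single arrays). Normexp shifted the median of all probes by 0.11 with IFN-λ2 and lowered the differences of probe 2 of Ddx58, Ifih1 and Zbp1. Probe 2 of Ifih1 and of Zbp1 was not marked as well above background on either control array, so that the size of its increase is uncertain.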
